A study of Drosophila melanogaster and Drosophila mauritiana and Drosophila simulans with 22 samples.

Results

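crq, Pxn and apolpp, 3 genes of blood cells and fat body, were followed in fly testes. They were taken as the array rows whose only gene symbol in the platform's probe table is one of these names, which gave 3 of the 6793 genes named by a single symbol and 10 of the 27648 rows. All 3 passed the filter on missing values and were among the 5107 genes tested. crq (croquemort) encodes a CD36-family receptor with which Drosophila macrophages take up dying cells. Pxn (Peroxidasin) encodes a haem peroxidase of the extracellular matrix that blood cells secrete, and apolpp encodes the precursor of the apolipophorins, the protein of the main lipid-carrying particle of the haemolymph, which the fat body makes.

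Testis RNA was compared between 3 kinds of hybrid males and 4 Drosophila species on 22 arrays. The hybrids all had D. simulans mothers (strain 14021-0251.2), with 10 females and 15 males set up per vial, and carry their father's species in their name. The melanogaster hybrid had D. melanogaster fathers (14021-0231.00), the mauritiana hybrid D. mauritiana fathers (14021-0241.1) and the sechellia hybrid D. sechellia fathers (strain #12, as the labels of D. sechellia give it). The other groups were D. simulans, D. melanogaster, D. mauritiana and D. sechellia of those same strains. There were 4 arrays of D. mauritiana and 3 of every other group. Flies were kept at 25 °C in 12 h of light and 12 h of dark, and each array used a pool of 200 testes, dissected without accessory glands from 4 day old males. The testis RNA, amplified in 1 round and labelled with Cy5, was set against total RNA of whole D. melanogaster males labelled with Cy3, with no dye swap. Every value is therefore a log2 ratio of testes over whole D. melanogaster males, centred so that the median of the named rows of an array is 0. In the species other than D. melanogaster and in the hybrids, RNA of different species was set side by side on the same probe.

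In flies, circulating blood cells clear dead cells and bacteria and lay down matrix, and the fat body stores lipid and feeds the haemolymph. The testis has no blood cells in its tubules: somatic cyst cells enclose the germ cells, and a sheath of pigment and muscle cells covers the organ. Fat body lies beside it in the abdomen. In RNA from a whole organ, fewer cells of a type and less RNA per cell cannot be told apart.

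The arrays held between 13019 and 27648 values. The SD between duplicate spots lay between 0.22 and 0.48 on the 19 arrays outside D. sechellia and between 1.30 and 1.85 on the 3 D. sechellia arrays, so the D. sechellia values of single genes carry much larger error. Array 2 of the sechellia hybrid stood apart, with a median correlation of 0.39 to its group's other arrays (over genes, which are not independent). Arrays 1 and 2 of D. melanogaster, arrays 1 and 2 of D. simulans and arrays 1 and 3 of the sechellia hybrid lay closer to each other than other pairs of their groups. Nothing in the labels says that numbered replicates are separate cultures, and the p-values cover only the spread between these samples, which may be technical. The number of arrays limits the precision. In D. melanogaster testes 3 of 4 late spermatid genes rose and 0 fell, and 8 of 8 gut genes and 4 of 4 accessory gland genes fell, against whole males. Of all tested genes 30.4% rose and 13.9% fell there.

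As averages of their rows, all 3 genes were higher in testes of the melanogaster hybrid than in either parent species. The rise over the mean of the parents was 5.76-fold for crq, 2.75-fold for Pxn and 2.41-fold for apolpp. Probe 1 of apolpp did not share the rise over D. simulans (-0.04, adjusted p = 0.9998, limma over single probes). The calls of Pxn against each parent were lost in some alternative analyses. In the same comparison 12.4% of the 5107 tested genes rose and 19.6% fell. None of the 3 passed the test in the mauritiana hybrid or the sechellia hybrid against a parent.

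crq was the receptor gene of the set and showed the highest ratios. It is represented by 1 probe spotted on 2 rows, which differed by at most 0.45 on any array outside D. sechellia. Its log2 ratio was 2.47, 1.73 and 2.36 on the 3 arrays of the melanogaster hybrid, against -0.46, -0.57 and 0.04 in D. simulans and -0.08, -0.24 and -0.74 in D. melanogaster. Every array of the hybrid lay above every array of both parents, which was also so for 21.1% of the tested genes. On the hybrid arrays crq stood between the 93.1 and 98.7 percentiles of the log2 ratios of all named genes, against 17.6 to 53.0 in D. simulans and 17.3 to 47.3 in D. melanogaster. Group means were 2.19 ± 0.40 in the melanogaster hybrid, -0.33 ± 0.33 in D. simulans and -0.35 ± 0.34 in D. melanogaster (SD, n = 3 arrays each).

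The rise of crq in the melanogaster hybrid was 2.52 ± 0.58 on the log2 scale over D. simulans (SE, adjusted p = 0.00267, limma), a comparison in which 9.69% of genes rose. Over D. melanogaster it was 2.54 ± 0.58 (adjusted p = 0.00188, limma), where 10.3% of genes rose. Over the mean of both parents it was 2.53 ± 0.50 (adjusted p = 0.000472, limma). The 23 alternative analyses of each parent comparison kept this call.

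Pxn, the matrix peroxidase, had log2 ratios of 0.76, 1.23 and 1.28 in the melanogaster hybrid, against -0.54, -0.59 and -0.14 in D. simulans and -0.28, -0.31 and -0.35 in D. melanogaster. All 3 hybrid arrays were above all 6 parental arrays, as for 21.1% of the tested genes. The group means were 1.09 ± 0.29 in the hybrid, -0.42 ± 0.25 in D. simulans and -0.31 ± 0.04 in D. melanogaster (SD, n = 3 arrays each). The difference was 1.51 ± 0.46 over D. simulans (SE, adjusted p = 0.0219, limma) and 1.41 ± 0.46 over D. melanogaster (adjusted p = 0.0267, limma). Over the mean of the parents it was 1.46 ± 0.40 (adjusted p = 0.00838, limma). In these comparisons 9.69%, 10.3% and 12.4% of the tested genes rose. The parent comparisons are near the threshold: 11 of 23 alternatives ended the call against D. simulans and 12 of 23 against D. melanogaster, with no change of direction. With the close array pairs averaged the adjusted p was 0.0981 and 0.0830, and with the D. sechellia arrays left out of the fit it was 0.00476 and 0.00640.

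apolpp, the lipoprotein precursor, had log2 ratios of -0.01, 0.93 and 0.48 in the melanogaster hybrid, against -0.83, -0.41 and -1.05 in D. simulans and -0.68, -0.92 and -0.93 in D. melanogaster. The hybrid arrays lay around or above 0 and did not overlap with either parent, whose arrays were all below 0. Hybrid arrays all above both parents were found for 21.1% of the tested genes. Group means were 0.47 ± 0.47 in the hybrid, -0.76 ± 0.33 in D. simulans and -0.84 ± 0.14 in D. melanogaster (SD, n = 3 arrays each). The rise was 1.23 ± 0.35 over D. simulans (SE, adjusted p = 0.0127, limma), 1.31 ± 0.35 over D. melanogaster (adjusted p = 0.00652, limma) and 1.27 ± 0.30 over their mean (adjusted p = 0.00249, limma). Of the tested genes 9.69%, 10.3% and 12.4% rose in these comparisons. Leaving out array 2 of the hybrid gave 0.9999 over D. simulans with an adjusted p of 0.0779, and leaving out array 3 of D. simulans gave 1.09 with an adjusted p of 0.0596. Its 2 probes differ, as described further on.

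**Figure D1:**
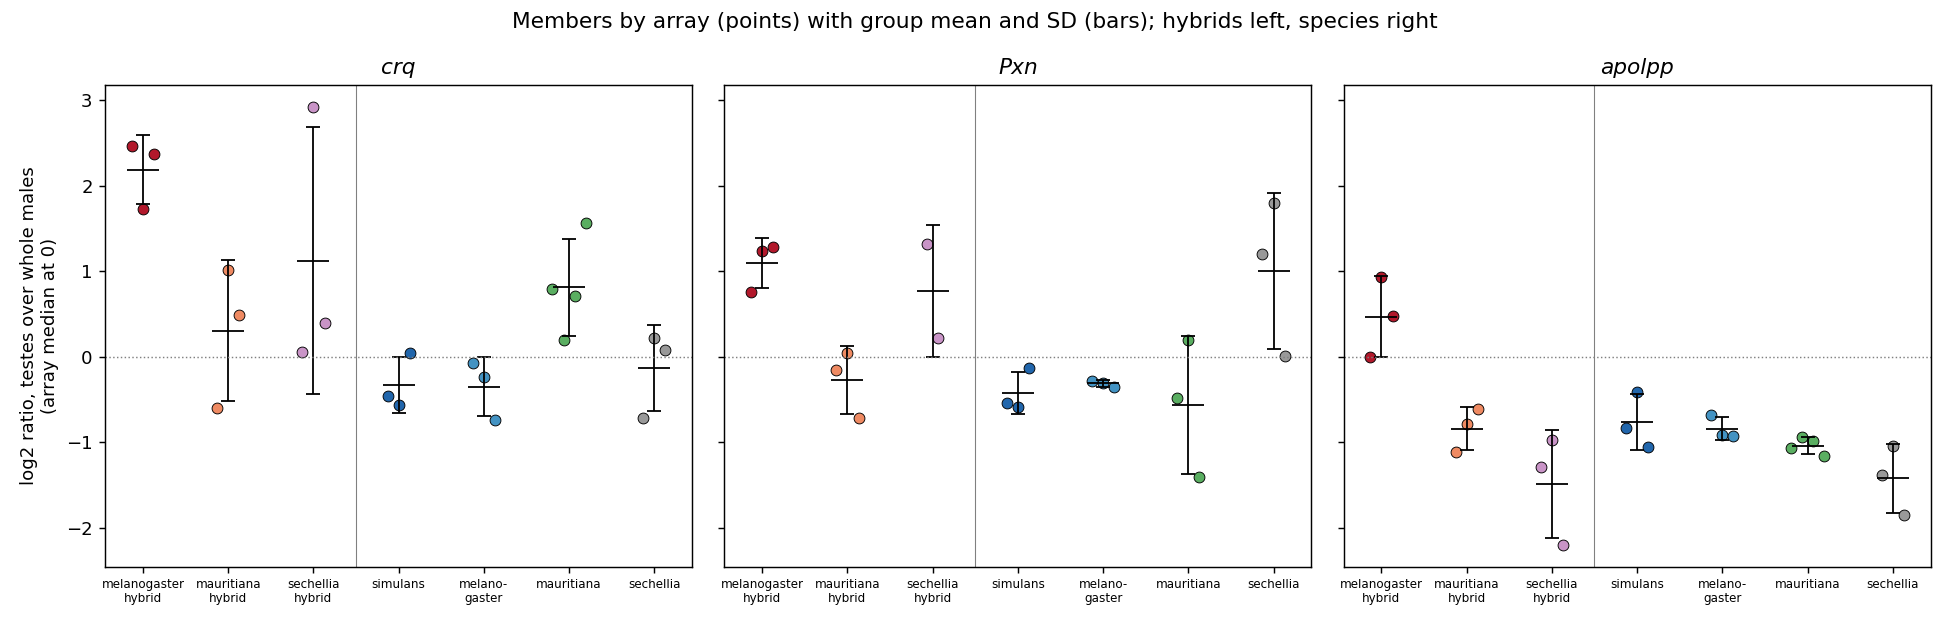
Log2 ratio of testes over whole D. melanogaster males (y axis, array median at 0) for crq, Pxn and apolpp, with 1 point per array and the mean and SD of each group as bars. The hybrids are on the left of each panel and the species on the right; the 3 arrays of the melanogaster hybrid lie above all D. simulans and D. melanogaster arrays in every panel.

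In the mauritiana hybrid, a cross of closer relatives, the 3 genes did not pass the test. crq was at -0.60, 1.02 and 0.49 in the mauritiana hybrid, against -0.46, -0.57 and 0.04 in D. simulans and 0.79, 0.19, 0.71 and 1.57 in D. mauritiana. Pxn was at -0.15, 0.04 and -0.72 in the hybrid, against -0.49, 0.19 and -1.40 in D. mauritiana, where array 3 had no value. The arrays overlapped with both parents for both genes. apolpp was at -1.11, -0.79 and -0.62 in the hybrid, against -1.07, -0.94, -0.98 and -1.17 in D. mauritiana, where array 3 had values of probe 2 only. The differences from the mean of the parents were 0.06 ± 0.49 for crq, 0.22 ± 0.40 for Pxn and 0.06 ± 0.30 for apolpp (SE), with adjusted p from 0.929 to 0.985 in limma, and 0 of the 3 genes had an unadjusted p under 0.05 against either parent or their mean. Few genes passed in this cross, with 3.6% against D. simulans, 4.5% against D. mauritiana and 2.33% against their mean.

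The sechellia hybrid rests on thinner data, since its parent D. sechellia has noisy arrays and its own array 2 stands apart. crq was at 0.06, 2.92 and 0.39 in the sechellia hybrid, against -0.46, -0.57 and 0.04 in D. simulans and -0.71, 0.22 and 0.08 in D. sechellia. All hybrid arrays were above those of D. simulans, as for 17.1% of genes, but the group mean of 1.12 ± 1.57 (SD, n = 3 arrays) rests on array 2. The difference from D. simulans was 1.45 ± 0.58 (SE, adjusted p = 0.106, limma), and without array 2 it was 0.55 (adjusted p = 0.523). Without array 1 it was 1.99 and passed (adjusted p = 0.0470). Array 2, which had the highest crq value of the 22 arrays, also had the highest median ratio of the 4 accessory gland genes in its group, -1.04, against -3.32 and -3.98 on arrays 1 and 3, and the lowest of the 4 late spermatid genes, -0.76, against 0.66 and 0.10. Their part in the crq value was not tested.

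Pxn had no value on array 1 of the sechellia hybrid and stood at 1.31 on array 2, from 1 row, and at 0.22 on array 3. Both values were above the D. simulans arrays, as all values were for 17.1% of the tested genes. The difference was 1.19 ± 0.52 (SE, adjusted p = 0.149, limma). Without array 2 it was 0.64 and without array 3 it was 1.73 (adjusted p = 0.588 and 0.1003). apolpp had ratios of -1.29, -0.98 and -2.20 in the sechellia hybrid, against -0.83, -0.41 and -1.05 in D. simulans and -1.38, -1.05 and -1.85 in D. sechellia. Its difference from D. simulans was -0.72 ± 0.35 (SE, adjusted p = 0.196, limma) and that from D. sechellia -0.06 ± 0.35 (adjusted p = 0.933, limma). None of the 3 genes passed against D. simulans, against D. sechellia or against their mean in limma, where 13.6%, 11.4% and 5.82% of genes did. At an unadjusted p under 0.05 there were 2, 1 and 1 of the 3.

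**Figure D2:**
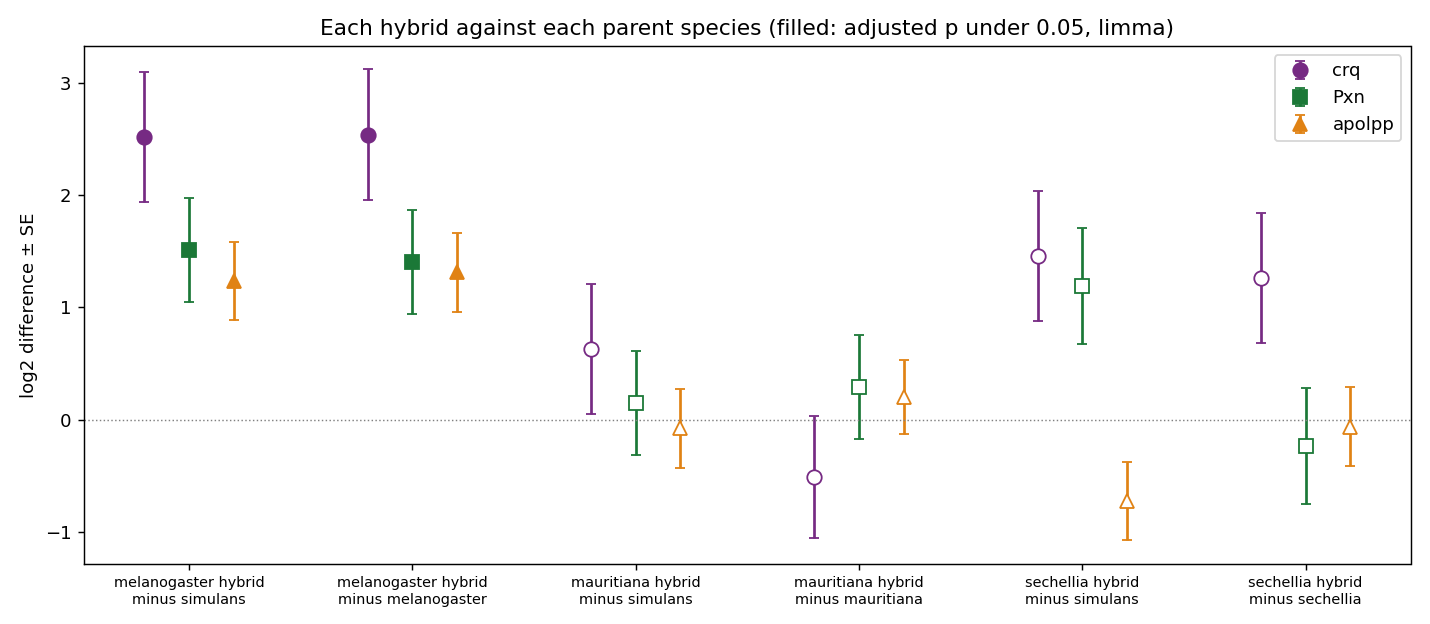
Difference in log2 ratio between each hybrid and each of its parent species for crq, Pxn and apolpp, with the SE of the limma fit as bars. Filled points passed at an adjusted p under 0.05; the 6 points of the melanogaster hybrid are filled, between 1.23 and 2.54, and the 12 points of the other hybrids are open.

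Set directly against the mauritiana hybrid, the melanogaster hybrid was higher for all 3 genes, by 1.89 ± 0.58 for crq (SE, adjusted p = 0.0188, limma), 1.37 ± 0.46 for Pxn (adjusted p = 0.0353) and 1.31 ± 0.35 for apolpp (adjusted p = 0.00753). In that comparison 7.95% of genes were higher, and the 3 genes did not overlap between the crosses, as 22.5% of genes did not in this direction. With 1 array left out the crq difference was 1.44 to 2.24, and it did not pass without array 1 or 3 of the melanogaster hybrid or array 1 of the mauritiana hybrid. Pxn, at 1.15 to 1.53, did not pass without array 2 or 3 of the melanogaster hybrid or array 1 or 3 of the mauritiana hybrid, and apolpp, at 1.08 to 1.55, without array 2 of the melanogaster hybrid. For apolpp the difference came from probe 2, at 2.34 ± 0.47 (SE, adjusted p = 0.00110, limma over single probes), with probe 1 at 0.28 ± 0.46 (adjusted p = 0.825). Against the sechellia hybrid, where 12.6% of genes were higher, apolpp rose by 1.96 ± 0.35 (SE, adjusted p = 0.000509, limma), with probe 2 at 3.63 ± 0.47 and probe 1 at 0.18 ± 0.46 (adjusted p = 0.917). crq differed there by 1.06 ± 0.58 (adjusted p = 0.239) and Pxn by 0.33 ± 0.52 (adjusted p = 0.768), and their arrays overlapped. Array 2 of the sechellia hybrid sets these values: without it crq differed by 1.96 and passed (adjusted p = 0.00582, limma), and Pxn differed by 0.87 (adjusted p = 0.405). With any other single array left out crq was at 0.53 to 1.29 and Pxn at -0.22 to 0.49, and neither passed. The effects of the crosses, each taken over the mean of its own parents, were compared in the same fit. The effect on crq was larger in the melanogaster hybrid than in the mauritiana hybrid by 2.47 ± 0.64 (SE, adjusted p = 0.00659, limma; 5.58% of genes had a larger effect), while the same difference for Pxn was 1.24 ± 0.52 (adjusted p = 0.0956). For apolpp the effect was larger in the melanogaster hybrid by 1.21 ± 0.39 than in the mauritiana hybrid (adjusted p = 0.0264) and by 1.66 ± 0.39 than in the sechellia hybrid (adjusted p = 0.00610, with 5.97% of genes). The difference between the melanogaster and mauritiana hybrids did not pass for apolpp without array 2 or 3 of the melanogaster hybrid or array 1 or 2 of the mauritiana hybrid (0.98 to 1.45 with 1 array left out). For crq the effect was larger in the melanogaster hybrid than in the sechellia hybrid by 1.17 ± 0.64 (adjusted p = 0.251), and by 2.07 without array 2 of the sechellia hybrid (adjusted p = 0.00855). The 3 crosses share the D. simulans arrays, so these differences are not independent of each other.

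Over all 7 groups, the order of the levels of crq from high to low was melanogaster hybrid, sechellia hybrid, D. mauritiana, mauritiana hybrid, D. sechellia, D. simulans and D. melanogaster. With all arrays, 0 of its 6 neighbouring pairs passed in limma (adjusted p from 0.239 to 0.997), so this order is not resolved between neighbours. The first pair, the melanogaster hybrid over the sechellia hybrid, passed without array 2 of the sechellia hybrid (1.96, adjusted p = 0.00582). D. mauritiana was the species with the highest crq, at 0.81 ± 0.57 (SD, n = 4 arrays), and all 4 arrays lay above those of D. simulans and D. melanogaster, which was so for 16% and 9.73% of genes. The differences did not pass, at 1.14 ± 0.54 over D. simulans (SE, adjusted p = 0.181, limma) and 1.16 ± 0.54 over D. melanogaster (adjusted p = 0.200, limma). Of 24 alternatives each, 2 gave a call over D. simulans (array weights and the spread of the compared arrays, lowest adjusted p = 0.00169) and 1 over D. melanogaster (array weights, adjusted p = 0.0185).

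Pxn was highest in the melanogaster hybrid, followed by D. sechellia, the sechellia hybrid, the mauritiana hybrid, D. melanogaster, D. simulans and D. mauritiana, and 0 of 6 neighbouring pairs passed in limma (adjusted p from 0.192 to 0.984). D. sechellia had 1.20, 1.80 and 0.01, against -0.54, -0.59 and -0.14 in D. simulans. It was higher than D. simulans by 1.42 ± 0.46 (SE, adjusted p = 0.0311, limma) and than D. melanogaster by 1.31 ± 0.46 (adjusted p = 0.0357, limma), where 6.76% and 7.66% of genes were higher. D. mauritiana was lower than D. sechellia by 1.57 on the log2 scale (a difference of -1.57 ± 0.46, adjusted p = 0.0211, limma), where 6.36% of genes were lower. These 3 calls rest on rows that disagree: the 2 rows of probe 2 differed by between 1.33 and 5.03 on the D. sechellia arrays, against at most 0.86 elsewhere. With the spread taken from the arrays compared, the adjusted p was 0.140, 0.127 and 0.233. Without array 2 of D. sechellia none of the 3 passed, at 1.02, 0.91 and -1.17.

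The average of the apolpp rows with a value was highest in the melanogaster hybrid, followed by D. simulans, the mauritiana hybrid, D. melanogaster, D. mauritiana, D. sechellia and the sechellia hybrid. Of the 6 neighbouring pairs only the first, the melanogaster hybrid over D. simulans, passed. The other groups had means between -1.49 ± 0.64 in the sechellia hybrid and -0.76 ± 0.33 in D. simulans (SD, n = 3 arrays each). By single probes the order differed: probe 1 averaged -0.79 in the melanogaster hybrid, below -0.75 in D. simulans and -0.60 in D. sechellia, and was lowest in D. mauritiana at -2.37, while probe 2 was highest in the melanogaster hybrid at 1.73 and lowest in D. sechellia at -2.25. Between species no gene value of apolpp or crq passed in limma. Single probes of apolpp did: probe 1 was lower in D. mauritiana than in D. simulans (-1.63 ± 0.46 SE, adjusted p = 0.0428) and than in D. sechellia (-1.78 ± 0.46, adjusted p = 0.0106). In these comparisons 2.18% and 8.79% of the 7168 probes were lower. Probe 2 was lower in D. sechellia than in D. melanogaster (-2.25 ± 0.47, adjusted p = 0.00148) and than in D. simulans (-1.47 ± 0.47, adjusted p = 0.0306). There 20.9% and 15.8% of probes were lower. It was higher in D. mauritiana than in D. sechellia (1.99 ± 0.44, adjusted p = 0.00352), as were 12.5% of probes. crq had an unadjusted p under 0.05 for D. mauritiana against D. simulans and against D. melanogaster. In these 2 comparisons 11% and 6.64% of genes passed, and 1.06% did between D. simulans and D. melanogaster.

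In D. melanogaster, testes and whole males of the same species were set side by side. The testis RNA was amplified and carried a different dye from the whole-male RNA, with no dye swap. Tissue, amplification and dye therefore cannot be told apart in these values. apolpp was lower in testes, at -0.84 ± 0.25 (SE, adjusted p = 0.00890, limma), which is 0.558 of the ratio of the median row. The lower value came from probe 1, at -1.68, while probe 2 was at 0.0023 (adjusted p = 0.998, limma over single probes). Without array 2 or array 3 of D. melanogaster the gene value did not pass (adjusted p = 0.0564 and 0.0508, limma). In this comparison 13.9% of genes were lower and 30.4% higher. crq, at -0.35 ± 0.41 (adjusted p = 0.513), and Pxn, at -0.31 ± 0.33 (adjusted p = 0.461), did not pass. In the melanogaster hybrid crq and Pxn stood above 0 on all 3 arrays, and apolpp on 2 of 3.

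Pxn and apolpp each have 2 probes, and the gene values above average their rows with a value. On array 3 of D. mauritiana apolpp had 2 rows, both of probe 2. On array 2 of the sechellia hybrid Pxn had 1 row, of probe 1. Some other arrays had 3 of the 4 rows of a gene. For apolpp the 2 probes did not show the same pattern. Probe 2 was at 1.54, 2.19 and 1.44 in the melanogaster hybrid, against -0.48, -0.30 and -1.58 in D. simulans and 0.09, 0.32 and -0.41 in D. melanogaster. Probe 1 was at -1.56, -0.32 and -0.48 in the melanogaster hybrid, against -1.19, -0.52 and -0.53 in D. simulans and -1.45, -2.15 and -1.45 in D. melanogaster. All hybrid arrays thus lay above both parents for probe 2, while probe 1 overlapped with both parents. At the level of genes such a separation was found for 21.1% of the tested genes. The share over single probes was not counted.

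In a limma fit of 7168 single probes, probe 2 of apolpp rose in the melanogaster hybrid by 2.51 ± 0.47 over D. simulans (SE, adjusted p = 0.000748) and 1.72 ± 0.47 over D. melanogaster (adjusted p = 0.0110), where 6.82% and 7.35% of probes rose. Probe 1 differed by -0.04 ± 0.46 (adjusted p = 0.9998) and 0.90 ± 0.46 (adjusted p = 0.197). In D. melanogaster testes the lower value against whole males came from probe 1, at -1.68 ± 0.32 (adjusted p = 0.000510, where 11.8% of probes were lower), with probe 2 at 0.00 ± 0.33 (adjusted p = 0.998). The change of probe 2 minus probe 1 between the hybrid and D. simulans was itself 2.55 ± 0.65 (SE, adjusted p = 0.0278, limma over 533 genes with 2 probes), where 6.38% of such genes passed. Against D. melanogaster it was 0.83 ± 0.65 (adjusted p = 0.605). The stretch of the transcript that each probe covers was not used here.

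For Pxn both probes had higher means in the melanogaster hybrid than in its parents, by different amounts. Probe 1 averaged 1.82 ± 0.47 in the hybrid, -0.50 ± 0.37 in D. simulans and -0.34 ± 0.14 in D. melanogaster (SD, n = 3 arrays each). Probe 2 averaged 0.36 ± 0.34 in the hybrid, -0.34 ± 0.13 in D. simulans and -0.29 ± 0.07 in D. melanogaster. In the fit of single probes without the D. sechellia arrays, probe 1 rose by 2.24 ± 0.34 over the mean of the parents (SE, adjusted p = 2.47e-05, limma) and probe 2 differed by 0.67 ± 0.33 (adjusted p = 0.130). With the D. sechellia arrays, where probe 1 had an SD of 3.77, neither passed (adjusted p = 0.121 and 0.388). The change of probe 2 minus probe 1 was -1.57 ± 0.30 without D. sechellia (adjusted p = 0.00109, where 23.1% of genes with 2 probes passed) and had an adjusted p of 0.631 with it.

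**Figure D3:**
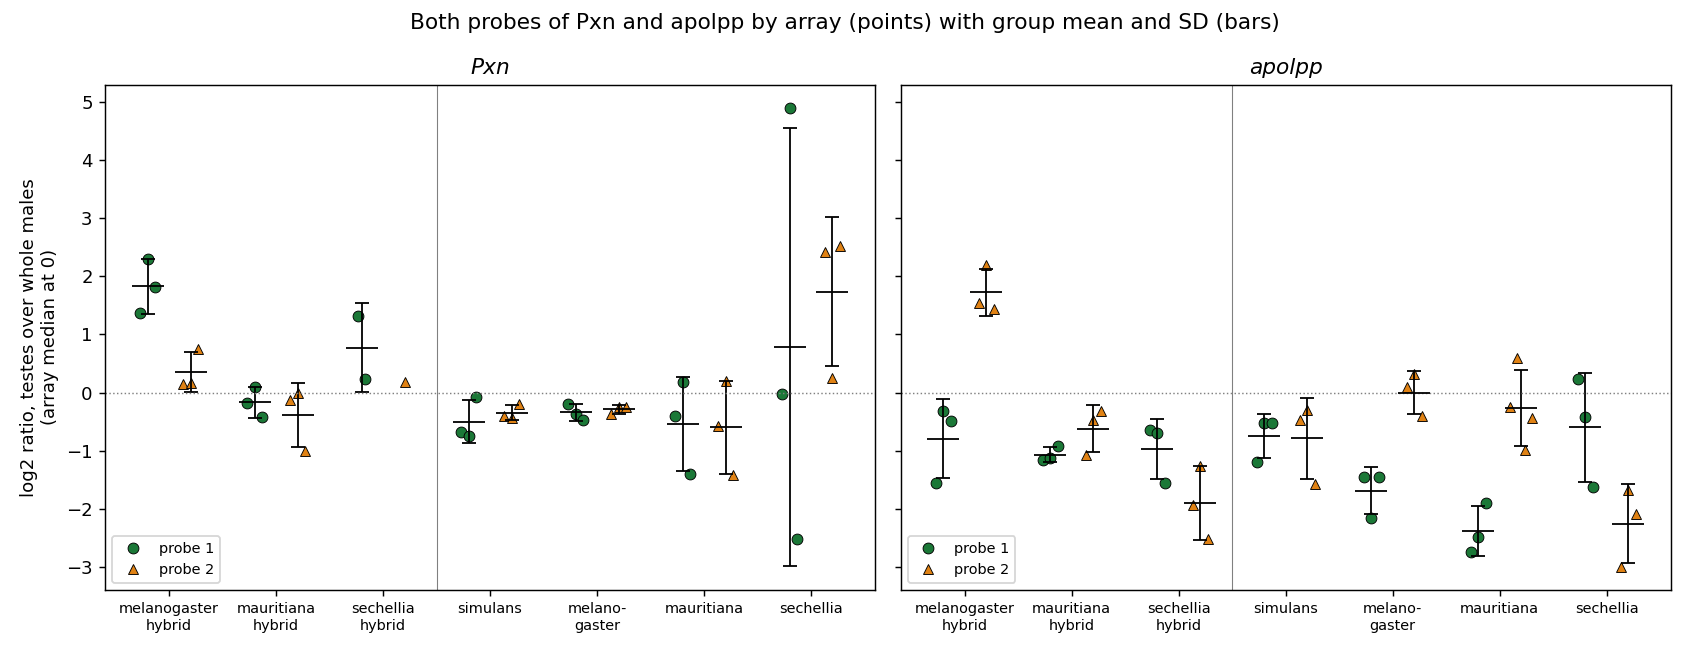
Log2 ratio of testes over whole D. melanogaster males (y axis) for each of the 2 probes of Pxn and apolpp, with 1 point per array and the mean and SD of each group as bars. In the melanogaster hybrid probe 1 of Pxn averages 1.82 and probe 2 0.36, while probe 1 of apolpp averages -0.79 and probe 2 1.73; the D. sechellia values of Pxn spread over the widest range.

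Some other genes of blood cells rose beside crq and Pxn in the melanogaster hybrid. Of 26 listed blood cell genes 11 were tested, and of the 9 besides crq and Pxn 4 rose over the mean of the parents and 0 fell, with a median of 1.04, against 0.03 for all tested genes, of which 12.4% rose and 19.6% fell. Against D. simulans alone 4 rose and 0 fell (9.69% and 13.9% of all tested genes), and against D. melanogaster alone 2 rose and 1 fell (10.3% and 20.1%). The median ratio of the 9 genes was -0.08, 0.39 and 0.58 on the hybrid arrays, against -0.18 to -0.05 in D. simulans and -0.30 to -0.09 in D. melanogaster, so array 1 of the hybrid overlapped with D. simulans. It was 0.64, 0.42 and -0.30 in the sechellia hybrid. PPO2, a prophenol oxidase of crystal cells, rose by 3.23 ± 0.33 (SE), PPO3, the prophenol oxidase of lamellocytes, by 1.82 ± 0.43, Fer2LCH, a ferritin chain, by 1.32 ± 0.49 and Pvr, the receptor of PDGF- and VEGF-like ligands, by 1.04 ± 0.36, with adjusted p of 0.0439 or less in limma. With 1 array left out, Fer2LCH passed in none of the 9 fits and Pvr missed in some, as given further on. The engulfment receptor drpr (-0.98 ± 0.43, adjusted p = 0.0916) and the plasmatocyte receptor NimC1 (-0.04 ± 0.93, adjusted p = 0.982) did not pass with all arrays. Neither did ush (0.95 ± 0.65, adjusted p = 0.313), a co-factor of GATA proteins. In D. melanogaster testes PPO2, Pvr and Fer2LCH were higher than in whole males, at 1.47 ± 0.27, 0.99 ± 0.29 and 1.17 ± 0.40 (SE, adjusted p = 0.0212 or less), and SPARC was lower (-1.68 ± 0.61, adjusted p = 0.0288). These counts, 3 of the 9 higher and 1 lower, are near the 30.4% and 13.9% of all tested genes. PPO2 kept its call against whole males with each of the 3 D. melanogaster arrays left out. The adjusted p was 0.0622 to 0.162 for SPARC and reached 0.134 for Fer2LCH and 0.0595 for Pvr.

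Pxn is also grouped with genes of the extracellular matrix. Of the 9 tested besides Pxn, 4 rose in the melanogaster hybrid over the mean of its parents and 0 fell, with a median of 1.01, where 12.4% of all tested genes rose and 19.6% fell. The list's median ratio was 0.96 to 1.61 on the hybrid arrays, against -0.48 to -0.13 in D. simulans and -0.82 to -0.44 in D. melanogaster. Timp, an inhibitor of matrix metalloproteinases, rose by 2.51 ± 0.53 (SE, adjusted p = 0.000884, limma), and the laminin chains LanA and LanB1 rose by 1.64 ± 0.50 and 1.41 ± 0.30 (adjusted p = 0.0165 and 0.000814). Plod, a collagen lysyl hydroxylase, rose by 0.88 ± 0.30 (adjusted p = 0.0283). The collagen IV chain Col4a1 (0.68 ± 0.68, adjusted p = 0.523) and the collagen-binding SPARC (1.54 ± 0.74, adjusted p = 0.128) did not pass. Of the 5 tested peroxidase and redox genes Pxn alone passed. With 1 array left out, Fer2LCH did not pass in any of the 9 fits (adjusted p from 0.0504 to 0.139), and Pvr, Plod and LanA missed in some, with adjusted p up to 0.198, 0.200 and 0.128.

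Relatives of crq were counted next. Of 6 tested CD36-family and other scavenger receptor genes crq alone passed in limma in the melanogaster hybrid over the mean of its parents, and 3 of the other 5 had an unadjusted p under 0.05, with 12.4% of all tested genes called higher. The median ratio of these 5 lay between 0.65 and 1.02 on the arrays of the melanogaster hybrid, against -0.11 to 0.14 in D. simulans and -0.30 to 0.24 in D. melanogaster. Among them pes was at 1.05 ± 0.49 (SE, adjusted p = 0.118, limma) and santa-maria at 0.84 ± 0.37 (adjusted p = 0.0947). In the sechellia hybrid emp, a CD36-family gene, fell by 1.64 on the log2 scale (adjusted p = 0.0155, limma), and CG2736 fell by 1.08 (adjusted p = 0.0472), where 4.78% of genes fell. Of 6 tested genes for phagocytosis and clearance of cell corpses crq and Ced-12 (1.10 ± 0.38, adjusted p = 0.0345), an engulfment adaptor, rose in the melanogaster hybrid. The 5 besides crq had a median of -0.04 over the mean of the parents, with 1 higher and 0 lower. Against D. simulans alone 1 rose and 0 fell (9.69% and 13.9% of all tested genes). Against D. melanogaster alone 0 rose and 1 fell (10.3% and 20.1%). With 1 array left out the adjusted p reached 0.124 for Ced-12, 0.0978 for emp and 0.176 for CG2736.

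Some genes of the fat body and of lipid transport rose beside apolpp. Of the 12 tested besides apolpp, 4 rose and 0 fell in the melanogaster hybrid over the mean of its parents, with a median of 0.55, where 12.4% of all tested genes rose and 19.6% fell. The list's median ratio was -0.25 to 0.16 on the hybrid arrays, against -0.71 to -0.57 in D. simulans and -1.11 to -0.79 in D. melanogaster. FASN1, a fatty acid synthase, rose by 2.50 ± 0.35 (SE), LpR2, a lipophorin receptor, by 1.56 ± 0.35, the desaturase Desat1 by 1.46 ± 0.35 and the lipase Lip4 by 1.07 ± 0.39, with adjusted p of 0.0433 or less in limma, though that of Lip4 reached 0.221 with 1 array left out. All 4 were lower in D. melanogaster testes than in whole males, as was the average of the apolpp rows, though not its probe 2 (0.0023). Of the 12 listed genes, 4 were called lower in that comparison and 0 higher, against 13.9% and 30.4% of all tested genes. Mtp, which loads lipid onto apolipophorin, did not pass in the melanogaster hybrid (-0.05 ± 0.29, adjusted p = 0.937, limma). The yolk protein gene Yp1 did not pass there either (-0.05 ± 0.83, adjusted p = 0.980). In the mauritiana hybrid and the sechellia hybrid, 0 genes of the blood cell, matrix and fat body lists passed over the mean of the parents in limma, where 2.33% and 5.82% of all tested genes did. At an unadjusted p under 0.05 there were 0, 1 and 1 in the mauritiana hybrid and 2, 3 and 0 in the sechellia hybrid, besides crq, Pxn and apolpp.

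**Figure D4:**
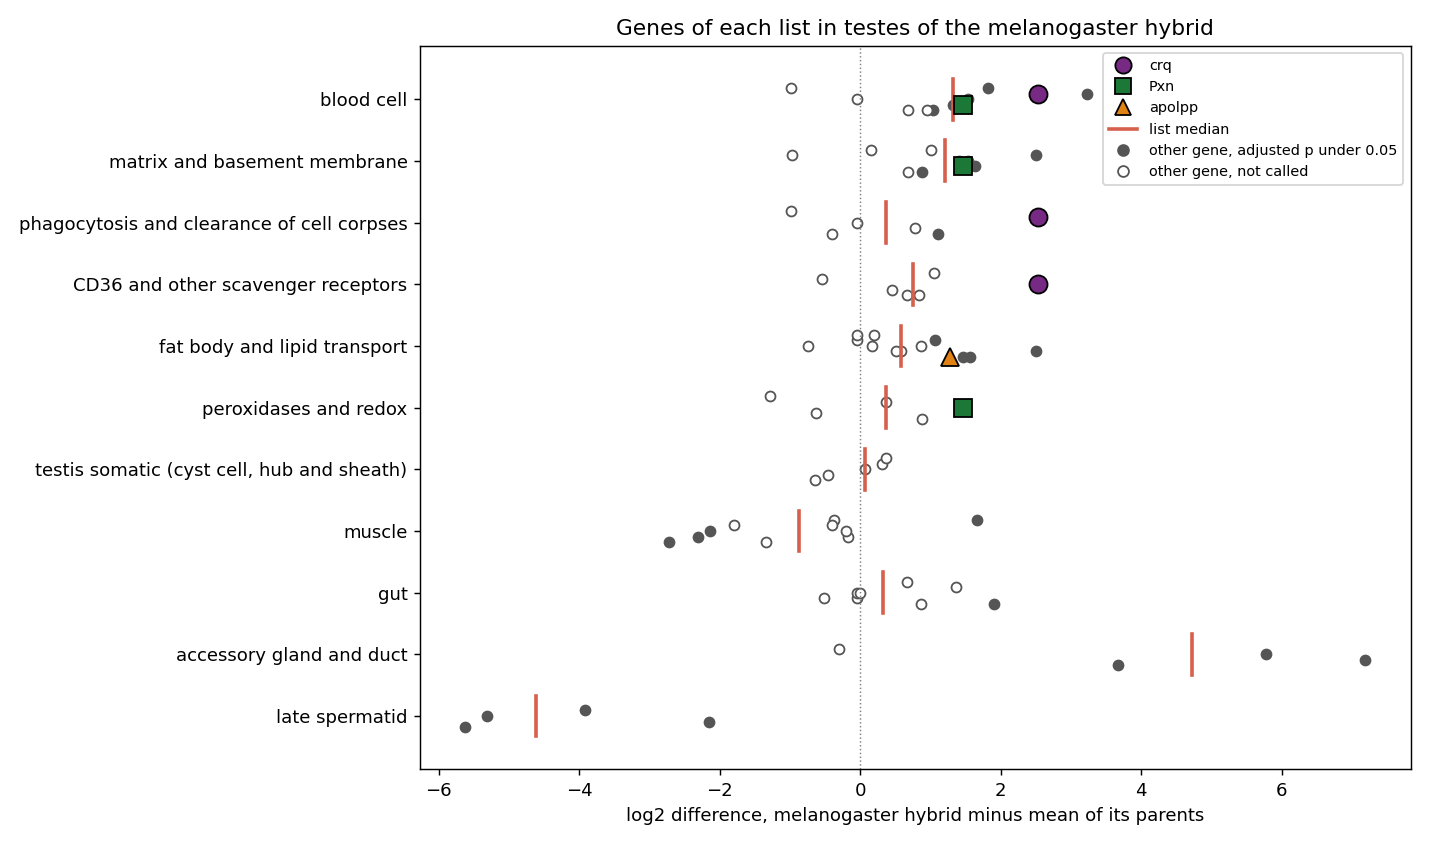
Difference in log2 ratio between the melanogaster hybrid and the mean of its parents (x axis) for the tested genes of each list (y axis); filled points passed at an adjusted p under 0.05, open points did not, and red bars are list medians with crq, Pxn and apolpp counted. crq at 2.53, Pxn at 1.46 and apolpp at 1.27 are marked in each list that holds them; the accessory gland genes reach the highest values and the late spermatid genes the lowest.

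Some genes of other tissues and of late germ cells moved in the same samples. Of the 4 accessory gland genes tested 3 rose in the melanogaster hybrid, and the median ratio of the 4 lay between 0.35 and 1.40 on its arrays, against -3.36 to -2.83 in D. simulans and -4.29 to -3.74 in D. melanogaster. The labels give the testes as taken without accessory glands. The 4 late spermatid genes all fell, with a median difference of -4.62 and array medians between -3.16 and -2.38 in the hybrid, against 1.29 to 1.66 in D. simulans and 1.80 to 2.32 in D. melanogaster. Of 10 muscle genes 3 fell (Act79B, Act87E and Act88F) and 1 rose (flr, an actin regulator), and of 8 gut genes 1 rose (Jon66Cii, a protease, at 1.90 ± 0.37 SE). Over the mean of the parents 12.4% of all tested genes rose and 19.6% fell. The counts of rising gut and muscle genes are near that share. Of 5 genes of somatic testis cells 0 passed in limma and 0 had an unadjusted p under 0.05, with a median of 0.07. The part of these shifts in the rise of crq, Pxn and apolpp was not tested.

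Across the 19 arrays outside D. sechellia, the genes whose log2 ratios ran most like those of crq were CG18281 (r = 0.94), CG5853 (0.92), fusl (0.91), Adgf-A (0.90) and Timp (0.90), over 18 or 19 arrays and 5041 genes compared. Adgf-A encodes an adenosine deaminase that blood cells release, and averaged 3.80 in the melanogaster hybrid, 0.17 in D. simulans and 0.69 in D. melanogaster. Its means were 2.03 in D. mauritiana, 1.86 in the sechellia hybrid, 1.07 in D. sechellia and 0.94 in the mauritiana hybrid. For Pxn they were CG15385 (0.93), Cyp4ac1 (0.92), Nrt (0.91), grass (0.91) and CG14823 (0.91), over 16 or 17 arrays and 4851 genes. For apolpp they were FASN1 (0.91), RpL27 (0.89), CG43901 (0.89), Prip (0.88) and CHOp24 (0.88), over 19 arrays. Among themselves, crq and Pxn correlated at 0.64 over 17 arrays, crq and apolpp at 0.43 over 19, and Pxn and apolpp at 0.50 over 17. These coefficients describe arrays that share their groups and their comparison RNA, and arrays of the melanogaster hybrid stand at the upper end for all 3 genes.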

How the data were processed

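Testis RNA of 3 kinds of hybrid and 4 species was measured on 22 arrays of 2 colours. The deposited values are log2 ratios of testes over whole males; the order is that of the sample titles, and base 2 is inferred from the values. In D. sechellia, for 8.01 to 12.6 percent of the values between 3 and 8 in size, 2 raised to that size and multiplied by 4 is a whole number, against at most 0.690 percent elsewhere. The scanner settings, background correction and normalization by the authors are not given in the sources used here.

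Rows with 1 gene symbol (15116) were used, 102 rows with several symbols and 12430 rows not listed in the probe table were not. Symbols come from the platform's annotation, which can be old. The median of an array's named rows was subtracted, and the rows of a gene that had a value were averaged. Adjacent rows are 1 probe on 2 spots (median r 0.93). The 5107 genes measured on 2 or more arrays per group were fitted with limma 3.58.1 in R 4.3.3 (group means, 1 spread per gene from all arrays); a call is a Benjamini-Hochberg adjusted p under 0.05 over all tested genes. Figures used matplotlib 3.10.9 in Python 3.11.15. The fit was tested on simulated data.

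The members, gene lists and tests were chosen with earlier results of these data known. Genes named beside the members are, per list, up to 3 with the smallest adjusted p under 0.05 in each hybrid or in D. melanogaster testes, and the 5 most correlated with each member; further list genes that did not pass were named after their values were seen. The lists are blood cell, matrix, phagocytosis, scavenger receptor, fat body, peroxidase, testis somatic, accessory gland, muscle, gut and late spermatid genes. Alternatives were other centring, scaling, quantile normalization, filters, single rows and probes, zeros as missing, another spread, array weights, a replicate block, averaged close arrays and each array left out; the fits of single probes were added after seeing the data.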

Additional observations from a re-analysis of the deposited data

Results flagged for a closer look

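The following 3 differences between crosses passed a test of the difference itself, the contrast of a hybrid's effect over the mean of its parents in one limma fit. The effect on crq was larger by 2.47 in the melanogaster hybrid than in the mauritiana hybrid (adjusted p = 0.00659, against 5.58% of genes with a larger effect), and the 30 alternatives kept this call, with values from 2.02 to 3.18. The effect on apolpp was larger by 1.21 in the melanogaster hybrid than in the mauritiana hybrid (adjusted p = 0.0264), and by 1.66 than in the sechellia hybrid (adjusted p = 0.00610, against 5.97% of genes). With probe 1 alone the first of these apolpp differences was -0.07, and with row 2 alone the second was -0.01.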

How the results depend on the processing

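Over 66 member values, 20 passed the test. The rise of crq in the melanogaster hybrid kept its call over each parent in all 23 alternatives, at 2.33 to 3.30 over D. simulans and 2.33 to 3.17 over D. melanogaster. Pxn kept its direction over both parents in the 23 alternatives of each, but not its call. Its difference over D. simulans and over D. melanogaster was 1.32 and 1.20 with no centring (adjusted p = 0.0970 and 0.113, limma), 1.44 and 1.42 with close arrays averaged (0.0981 and 0.0830), 2.12 and 1.97 with 1 row per gene (0.103 and 0.112) or with row 1 alone (0.0969 and 0.105), 2.32 and 2.17 with probe 1 alone (0.215 and 0.210), and 0.70 and 0.65 with probe 2 alone (0.537 and 0.486, or 0.216 and 0.202 without D. sechellia). Leaving out 1 array gave 1.42 to 1.68 over D. simulans and 1.31 to 1.57 over D. melanogaster, with adjusted p up to 0.0806 and 0.0888; arrays 2 and 3 of the hybrid, any array of D. melanogaster and arrays 1 and 2 of D. simulans each ended a call.

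For apolpp the choice of rows decided. Its rise over D. simulans was 1.04 with no centring (adjusted p = 0.0924, limma), 0.24 with row 1 alone, -0.33 with row 2 alone and -0.043 with probe 1 alone, with or without D. sechellia. Over D. melanogaster it was 1.11 with no centring (0.0584), 1.01 with row 1, 0.78 with row 2 and 0.90 with probe 1 (0.197, or 0.0704 without D. sechellia). Leaving out 1 array gave 0.9999 to 1.47 over D. simulans. The difference of D. melanogaster testes from whole males was 0.047 with 1 row per gene or row 3 alone, -0.043 with row 4 alone and 0.0023 with probe 2 alone, with or without D. sechellia, and -0.92 to -0.80 with 1 array left out; without array 2 or array 3 it did not pass (adjusted p = 0.0564 and 0.0508). The melanogaster hybrid minus the sechellia hybrid was -0.50 with row 2 alone. The melanogaster hybrid minus the mauritiana hybrid was 0.51 with row 1, 0.04 with row 2 and 0.28 with probe 1, and passed with none of them. The effect of the melanogaster hybrid minus that of the mauritiana hybrid was -0.27 with row 2 and -0.069 with probe 1, with or without D. sechellia, and that minus the sechellia hybrid's effect was -0.014 with row 2. D. mauritiana minus D. sechellia was -1.83 with row 1, -1.59 with row 2 and -1.78 with probe 1, which passed, against a positive difference in the average of the rows. The cause was not tested.

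Among comparisons that did not pass, apolpp in the mauritiana hybrid minus D. mauritiana was -0.10 with no centring, -0.050 with arrays scaled to 1 spread, -0.30 with 1 row per gene or row 3, -0.41 with row 4, -0.35 with probe 2, with or without D. sechellia, and 1.31 with probe 1 without D. sechellia (adjusted p = 0.0358). Minus D. simulans it was 0.23 with 1 row per gene or row 3. In the sechellia hybrid apolpp minus D. sechellia was 0.56 with 1 row per gene or row 3, and minus D. simulans 0.17 with row 2. Array weights gave calls for crq in the mauritiana hybrid minus D. simulans (1.17), for Pxn in D. melanogaster testes (-0.30), and in the sechellia hybrid minus D. simulans for crq (0.96), Pxn (0.93) and apolpp (-1.07). The last comparison also passed with arrays scaled to 1 spread for crq (1.64) and Pxn (1.40) and with quantile normalization (1.80 and 1.55), and leaving out 1 array of it gave 0.55 to 1.99 for crq.

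Same-numbered arrays did not clearly deviate together (median r 0.04 over 63 pairs, against -0.04 over 144 others). The ranges overlapped, from -0.33 to 0.37 and from -0.44 to 0.36. These values show no pairing of the samples by number but cannot exclude one. With the replicate number as a block, 64 of 66 values kept their side of the threshold; Pxn in D. mauritiana minus D. sechellia did not pass (-1.27, adjusted p = 0.0726), and the Pxn effect of the melanogaster hybrid minus that of the mauritiana hybrid did (1.39, adjusted p = 0.0388). Over all alternatives, the count of genes called in the melanogaster hybrid against the mean of its parents was 1212 to 3026, against 1635, and 14 to 839 in the mauritiana hybrid, against 119, and 1 to 1246 in the sechellia hybrid, against 297. The spread between duplicate spots limits D. sechellia values, and missing values limit Pxn in the sechellia hybrid.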
